A study of Mus musculus with 6 samples.

Results

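Keratins are the intermediate filament proteins of epithelial cells, and keratin-associated proteins form the matrix in which the keratin filaments of hair are embedded. The 105 genes described here are every gene whose symbol begins with Krt and a number or with Krtap, out of 24346 gene symbols. They comprise 52 keratins (28 type I and 24 type II) and 53 keratin-associated protein genes. Messenger RNA was measured in the nasomaxillary complex, the nose and upper jaw, of E17.5 mouse embryos in 6 libraries. The 3 control libraries had the genotype Pth1r f/f (floxed copies of the parathyroid hormone receptor gene, no Cre), and the 3 mutant libraries had Wnt1-Cre and the same floxed alleles. Wnt1-Cre acts in the neural crest, which gives rise to the facial skeleton and connective tissue, whereas surface and oral epithelium is mostly not of neural crest origin. Controls carried no Cre, so whatever the transgene itself does and the loss of Pth1r cannot be told apart. Values are given in the order of replicates 1, 2 and 3 of each group, numbered by order of deposit.

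A keratin filament is built from pairs of a type I (acidic) and a type II (basic) chain. Which pair a cell makes follows its position and state. Basal cells of stratified epithelium make Krt5 with Krt14, suprabasal epidermal cells make Krt1 with Krt10, suprabasal cells of oral and other internal mucosa make Krt4 with Krt13, and simple epithelia such as nasal respiratory lining make Krt8 with Krt18. The hair follicle adds its own sets. In the inner root sheath these are Krt25 to Krt28 with Krt71 to Krt73. Krt74 is annotated as a pseudogene but is counted with that set here. In the hair shaft they are most of the Krt30s and Krt80s, and keratin-associated proteins are also made there. In the face these follicles include those of the whiskers.

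In GRCm38 the type I genes form a cluster on chromosome 11, where 27 of 28 lie between 99232761 and 100269871. Krt18 is the exception and lies beside the type II cluster on chromosome 15, which held all 23 type II genes with an annotated position (101347444 to 102004482). The keratin-associated genes were spread over chromosome 16 (23 genes), chromosome 11 (22 genes, within the type I cluster), chromosome 7 (5 genes) and chromosome 10 (3 genes). Upstream sequence before the transcription start was found for 83 members in RefSeq (GRCm38.p6). The letters TATAAA, the core of the TATA box at which transcription complexes assemble, occurred on the transcribed direction within 60 bases before the start in 49 of these 83 genes (59%). The share over all 27025 genes with such sequence was 3.44%. On the opposite strand the same letters occurred in 1 of the 83 (1.2%) and in 1.54% of all genes. Keratin-associated genes had them in 34 of 48 cases (70.8%) and keratins in 15 of 35 (42.9%). Within the keratins, 1 of 6 basal and suprabasal genes (16.7%) and 1 of 5 simple epithelial genes (20%) had them. The 80 bases before the start are shown 5′ to 3′ for some of the members whose values are described below. TATAAA is in capitals, to set beside the position of the match.
Krt10: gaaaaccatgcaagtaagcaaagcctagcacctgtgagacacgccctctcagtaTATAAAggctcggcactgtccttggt
Krt71: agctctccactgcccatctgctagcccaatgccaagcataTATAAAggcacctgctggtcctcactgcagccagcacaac
Krtap13: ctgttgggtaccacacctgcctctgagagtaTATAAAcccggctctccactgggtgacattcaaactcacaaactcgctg
Krtap8-1: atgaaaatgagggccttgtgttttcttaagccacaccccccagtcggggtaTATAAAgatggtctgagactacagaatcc
Krt5: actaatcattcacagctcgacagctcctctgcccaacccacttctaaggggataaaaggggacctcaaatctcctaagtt
Krt13: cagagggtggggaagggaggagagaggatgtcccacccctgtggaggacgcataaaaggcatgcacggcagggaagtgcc
These windows lie at chr11:99389365-99389444 (Krt10), chr15:101743098-101743177 (Krt71), chr16:88751629-88751708 (Krtap13), chr16:89487953-89488032 (Krtap8-1), chr15:101712906-101712985 (Krt5) and chr11:100121567-100121646 (Krt13), all on the minus strand. The match began 26 bases before the start in Krt10, 29 in Krtap8-1, 40 in Krt71 and 49 in Krtap13. The letters were not found in the windows of Krt5 and Krt13, nor in those of Krt14, Krt8 and Krt18, which are not shown. RefSeq gives Krt13 another start within the gene, whose window also lacks them.

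Expression is given as FPKM, a fragment count divided by transcript length and by the size of the library, so levels of different genes can be compared per length. Of the 105 members, 62 were detected, meaning that their 6 values averaged 0.1 FPKM or more. These were 47 of 52 keratins and 15 of 53 keratin-associated genes. Another 24 were above 0 in some library but under that mean, among them Krt36, Krt40, Krt74 and Krt81, and 19 were at 0 in every library, namely Krt39 and 18 keratin-associated genes. At the limit stood Krt42 just inside (0.105, 0.0949 and 0 FPKM in the controls, 0.154, 0.175 and 0.0784 in the mutants). Krt36 stood just outside (0.0967, 0.0436 and 0 FPKM in the controls, 0.0946, 0 and 0.360 in the mutants). A mean of at least 1 FPKM was reached by 30 members, 27 keratins and 3 keratin-associated genes, and these entered the test across genes. Of these 30, 5 had a control mean under 1 FPKM and none a mutant mean under it, so those 5 (Krtap13, Krt24, Krt25, Krt27 and Krt71) passed only through the mutant group.

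Total FPKM per library was 514693 to 546322, and depth relative to control replicate 1 ran from 0.671 in mutant replicate 3 to 1.11 in control replicate 2. Xist and the Y-linked Ddx3y placed the 3 controls and mutant replicate 1 as female and mutant replicates 2 and 3 as male. Sex is thus unevenly split, and a fit with sex as a covariate compares mutant replicate 1 alone with the 3 controls. Control replicate 3 stood apart for keratins: it was the lowest of the 6 libraries in 30 of 62 detected members, against 16.4% of all genes averaging 0.1 FPKM or more. Nasal markers were present throughout, for instance Omp of mature olfactory neurons at 73.8 to 93.1 FPKM. Separate embryos or litters are not named in the labels, so p-values measure the spread between these samples only, which may be technical.

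Summed keratin FPKM was higher in every mutant library than in any control. Sums for keratins of stratified epithelium and hair were separated in the same way, while those of the inducible and simple epithelial sets overlapped. Summed over all keratins, FPKM was 2260, 1730 and 1306 in the controls and 2842, 2592 and 2511 in the mutants, a difference of 0.62 on the log2 scale. An exact two-sided permutation test over libraries gave p = 0.1, the smallest that 3 against 3 allows, so no sum or ratio here can pass 0.05 (adjusted p = 0.135 over the 23 sums, shares and ratios tested). Type I genes summed to 1014 ± 255 in the controls and 1471 ± 99.7 in the mutants, and type II genes to 751 ± 224 and 1177 ± 73.7 (FPKM, SD, n = 3 each). Without control replicate 3 the ratio of mutant to control keratin sums was 1.33. In bulk tissue a larger number of epithelial cells and more RNA per cell cannot be told apart.

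**Figure D1:**
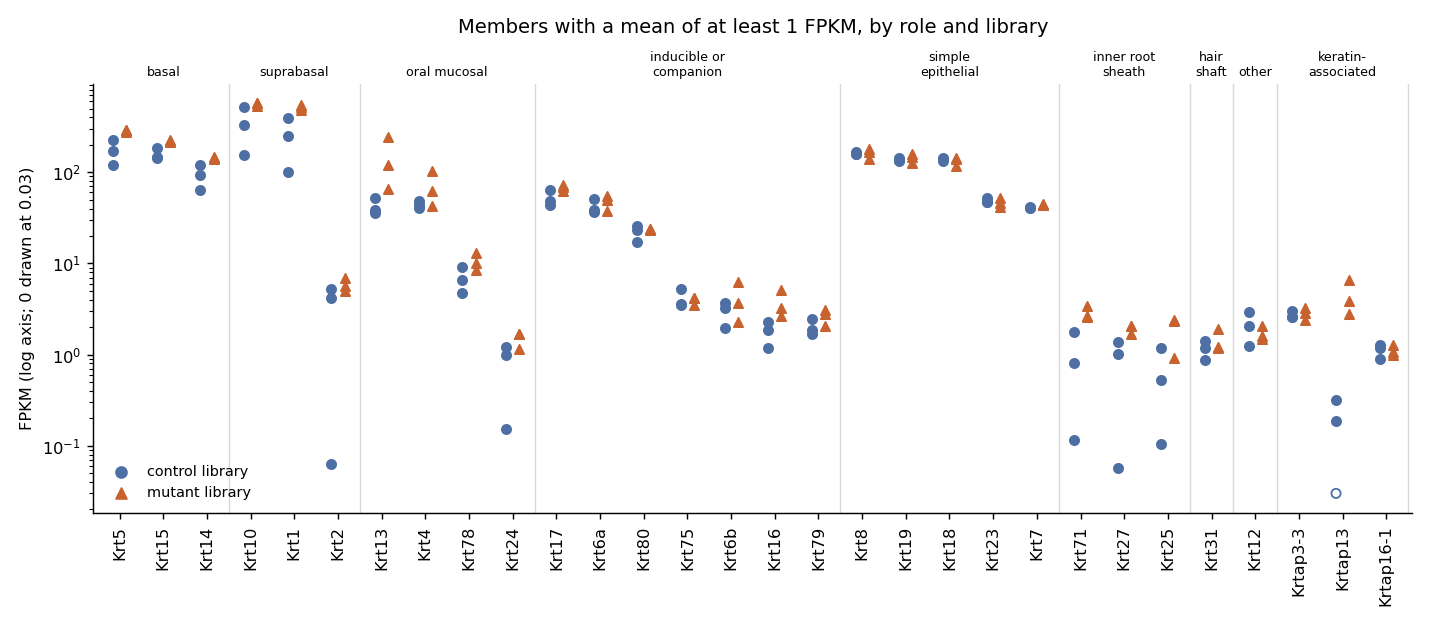
FPKM (log axis) of the 30 members with a mean of at least 1 FPKM, grouped by role, with circles for the 3 control and triangles for the 3 mutant libraries. The open circle marks a value of 0. Mutant triangles lie above all control circles for Krt5, Krt14, Krt15, Krt1, Krt10 and Krt13, while Krt8, Krt18 and Krt19 overlap.

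Of the 30 tested members 1 passed the test across genes, Krtap13, which rose in mutant libraries. The test was limma on log2(FPKM + 1) over 14766 genes, with Benjamini-Hochberg adjustment and a threshold of 0.05. It called 39 genes in all (0.264%), of which 9 were higher in mutant (0.061%). Positive changes were found in 25 of the 30 members, against 49.2% of all tested genes, and the median change of the members was 0.44 against -0.0020 for all genes. At an unadjusted p under 0.05 there were 12 members, all higher in mutant, where 5.35% of all genes reached that level in that direction. Among the 62 detected members 19 had every mutant value above every control value and 0 had every value below. Of all genes averaging 0.1 FPKM or more 7.79% were separated upward and 8.38% downward. Among the 30 tested members 11 were separated upward and 0 downward, against 7.85% and 9.16% of all tested genes. Without the 5 that passed the filter only through the mutants, 20 of 25 tested members had positive changes, 8 had an unadjusted p under 0.05 and were higher, 8 were separated upward, and the median change was 0.28. None of those 25 was called. The mutant mean was the higher in 55 of the 62 detected members, against 50.8% of genes. Without control replicate 3, 23 of the 62 were separated upward, against 11.5% of all genes. Of the 62, 12 had a control mean under 0.1 FPKM and could be detected only through the mutant group. Among the other 50, 16 were separated upward.

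**Figure D2:**
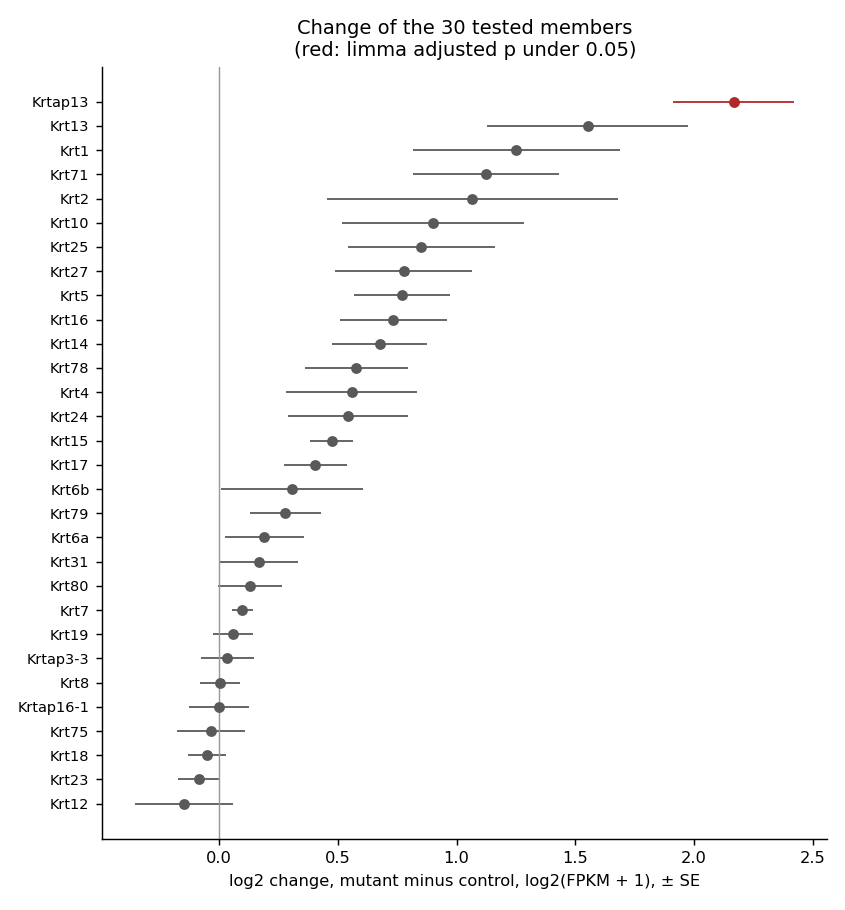
Log2 change from control to mutant on the log2(FPKM + 1) scale, with its standard error from limma, for the 30 tested members in order of size. Krtap13 (red) is the only one with an adjusted p under 0.05, and 25 of the 30 points lie above 0.

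Basal keratins had higher values in all 3 mutant libraries, with little spread among them. Krt5, the type II chain of basal keratinocytes (chromosome 15, 101707070 to 101712898), stood at 228, 169 and 120 FPKM in the controls and at 288, 293 and 273 in the mutants. Its partner Krt14 stood at 120, 94.0 and 63.5 FPKM in the controls and at 144, 146 and 141 in the mutants. Krt15, a type I chain of basal cells and of hair follicle stem cells, stood at 183, 144 and 148 FPKM in the controls and at 214, 220 and 223 in the mutants. In none of the 3 did the groups overlap, where 7.85% of all tested genes were separated upward. The log2 change was 0.77 ± 0.20 (SE) for Krt5, 0.68 ± 0.20 for Krt14 and 0.48 ± 0.091 for Krt15, with limma adjusted p of 0.265, 0.299 and 0.136. Krt15 passed in 1 of 19 alternative fits, without control replicate 1, and its limma adjusted p ran from 0.0293 to 0.917 over them. Without control replicate 3 the change of Krt14 was 0.43. The sum of the 3 genes was 331 to 531 FPKM in the controls and 638 to 659 in the mutants.

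Suprabasal keratins included the pair of highest mean level, Krt10 and Krt1, and varied widely among controls. Krt10, the type I chain of differentiating epidermis, stood at 521, 330 and 153 FPKM in the controls and at 570, 572 and 531 in the mutants. Krt1, its type II partner, stood at 398, 248 and 99.7 FPKM in the controls and at 541, 515 and 481 in the mutants. Both were above all controls in every mutant library, as were 7.85% of all tested genes. Control replicate 3 was far below the other controls. The log2 change was 1.25 ± 0.44 (SE) for Krt1 and 0.90 ± 0.38 for Krt10 (limma adjusted p of 0.362 and 0.442). Without control replicate 3 these changes were 0.70 and 0.42, and that of Krt2 was 0.26 against 1.07 with it. Krt2, a type II chain of the upper epidermis, stood at 5.17, 4.22 and 0.0623 FPKM in the controls and at 5.69, 4.92 and 6.92 in the mutants. In Krt2 and Krt77, another epidermal type II chain, the groups overlapped.

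Oral mucosal keratins were led by Krt13, with a partner that differed less. Krt13, the type I chain of oral and oesophageal suprabasal cells (chromosome 11, 100117327 to 100121566), stood at 52.5, 35.4 and 38.5 FPKM in the controls and at 241, 121 and 64.8 in the mutants. The groups did not overlap, and the mutants were spread widely, with replicate 1 highest and replicate 3 lowest. Its log2 change of 1.55 ± 0.42 (SE) had a limma adjusted p of 0.271, and leaving out mutant replicate 1 gave 1.07. Sex as a covariate, which leaves only mutant replicate 1 against the controls, gave 2.51. Krt4, its usual partner, stood at 48.0, 41.0 and 43.5 FPKM in the controls and at 104, 62.3 and 43.1 in the mutants, so mutant replicate 3 lay among the controls (limma adjusted p = 0.501). Krt78 and Krt24, type II and type I keratins of differentiated stratified epithelium, had log2 changes of 0.58 and 0.54 with overlapping groups, and of 0.38 and 0.26 without control replicate 3. Krt24 had a control mean of 0.784 FPKM and entered the test only through the mutants. Beside these, Tgm3, a transglutaminase that cross-links the cornified envelope and hair proteins, stood at 0.821, 0.611 and 0.171 FPKM in the controls and at 5.11, 3.79 and 1.62 in the mutants (limma adjusted p = 0.176).

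Keratins of simple epithelium had overlapping levels in controls and mutants, apart from Krt7. Krt8 stood at 157, 166 and 158 FPKM in the controls and at 165, 141 and 178 in the mutants. For Krt18 the values were 134, 142 and 139 FPKM in the controls and 141, 118 and 144 in the mutants. Krt19, a type I chain of simple and some basal cells, stood at 142, 134 and 135 FPKM in the controls and at 146, 125 and 159 in the mutants. The groups overlapped in all 3, and the log2 changes were 0.0043 ± 0.084 (SE), -0.052 ± 0.080 and 0.058 ± 0.085. Krt23, a type I chain, had a change of -0.087. Krt7, a type II chain of simple and glandular epithelium, was separated by a small margin, at 40.3 to 41.9 FPKM in the controls and 43.3 to 44.9 in the mutants (log2 change 0.098, limma adjusted p = 0.451). Summed over the 6 genes of this set, FPKM was 520 to 531 in the controls and 480 to 571 in the mutants. As a share of all keratin FPKM the set made up 23.4%, 30.7% and 39.8% in the controls and 18.9%, 18.5% and 22.7% in the mutants.

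Inducible and companion layer keratins, which appear in stressed epidermis, appendages and oral surfaces, were mixed. Krt17 stood at 63.2, 47.8 and 43.4 FPKM in the controls and at 71.7, 61.9 and 69.7 in the mutants. Krt16 was lower, at 2.28, 1.17 and 1.88 FPKM in the controls and 5.08, 3.28 and 2.63 in the mutants. It was the only gene of the 7 in this set whose groups did not overlap, where 7.85% of all tested genes were separated upward. Log2 changes were 0.40 ± 0.13 (SE) for Krt17 and 0.73 ± 0.22 for Krt16 (limma adjusted p of 0.335 and 0.308). Krt6a, Krt80 and Krt75 had changes of 0.19, 0.13 and -0.033. Krt6a and Krt6b are near-identical copies, so the split of fragments between them is uncertain.

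**Figure D3:**
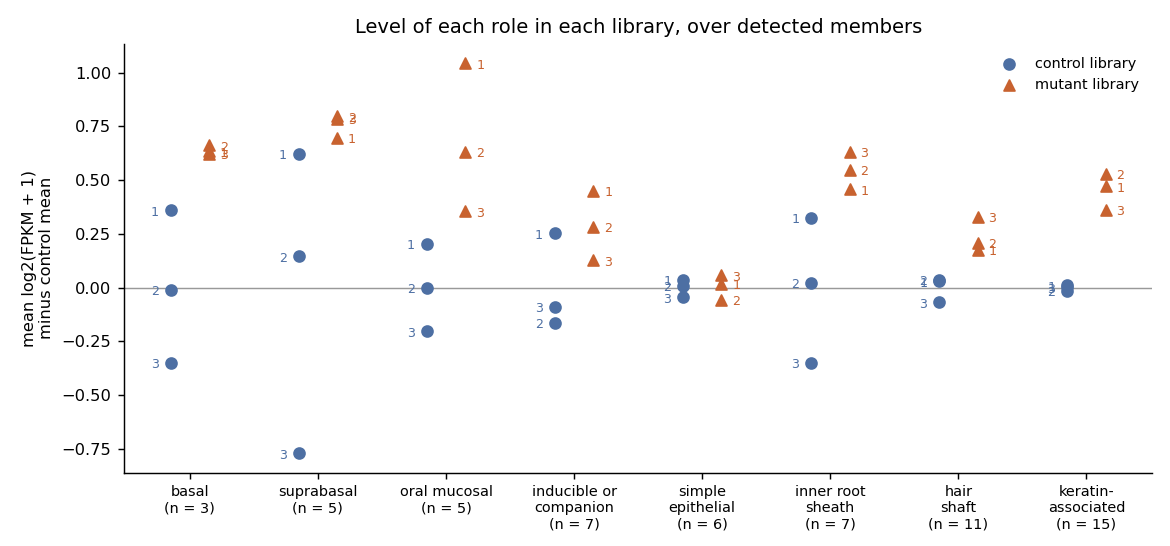
Mean log2(FPKM + 1) over the detected members of each role in each library, minus the mean of the 3 controls, with libraries numbered by replicate. Mutant libraries lie above all controls in the basal, suprabasal, oral mucosal, inner root sheath, hair shaft and keratin-associated sets, and overlap them in the inducible and simple epithelial sets. Of the 15 keratin-associated genes averaged, 8 had a control mean under 0.1 FPKM and were detected only through the mutants, so the position of that set follows in part from the choice of genes. Krt33a and Krt86 of the hair shaft set and Krt9 of the suprabasal set were likewise detected only through the mutants. Control replicate 3 is the lowest library in the basal, suprabasal, oral mucosal, inner root sheath and hair shaft sets, and not in the others.

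Type I genes outside the roles named here had overlapping groups. Krt12, known from the corneal epithelium, stood at 2.91, 2.04 and 1.23 FPKM in the controls and at 1.46, 1.61 and 2.04 in the mutants (log2 change -0.15, limma adjusted p = 0.843). Krt222, a short keratin-like gene, lay between 0.249 and 0.652 FPKM in all libraries.

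Ratios between partners within a library are not touched by scaling of the library. Krt5 was 1.80 to 1.90 times Krt14 in the controls and 1.94 to 2.01 times in the mutants. The ratio of Krt8 to Krt18 was 1.13 to 1.17 in the controls and 1.18 to 1.24 in the mutants. Larger differences were seen in the differentiated pairs. Krt1 was 0.762, 0.749 and 0.649 times Krt10 in the controls and 0.9498, 0.900 and 0.905 times in the mutants. Krt4 was 0.914, 1.16 and 1.13 times Krt13 in the controls and 0.430, 0.516 and 0.666 times in the mutants. In all 4 ratios the groups did not overlap, with exact permutation p = 0.1. Krt1 relative to the basal keratin Krt5 was 1.75, 1.46 and 0.832 in the controls and 1.88, 1.76 and 1.76 in the mutants. The highest control and the lowest mutant lay close together. The matching type I ratio, Krt10 to Krt14, overlapped, at 4.35, 3.52 and 2.42 in the controls and 3.96, 3.93 and 3.77 in the mutants (exact permutation p = 0.6).

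**Figure D4:**
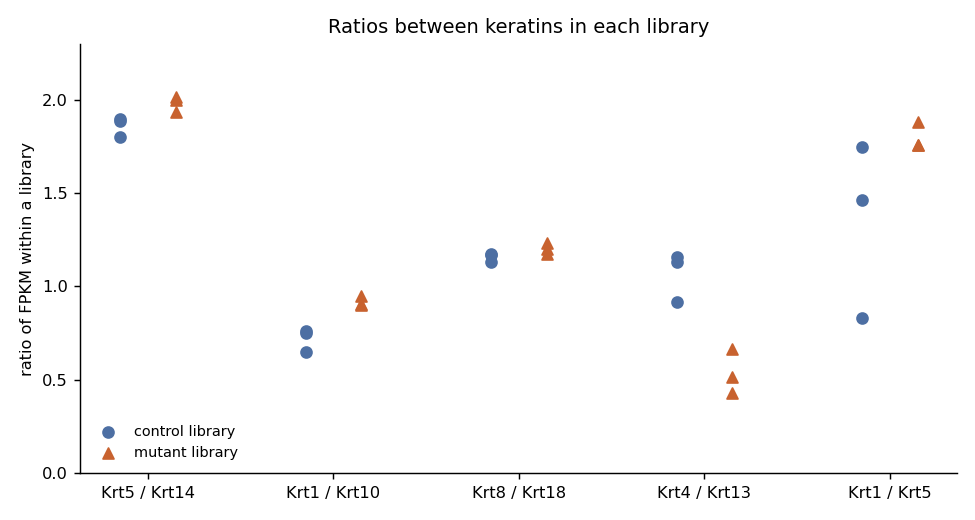
Ratio of FPKM between keratins within each library, with circles for control and triangles for mutant. Krt4 relative to Krt13 is lower in all 3 mutant libraries (0.430 to 0.666) than in all 3 controls (0.914 to 1.16), and Krt1 relative to Krt10 is higher.

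Inner root sheath keratins were low in all libraries, and 5 of the 7 detected were lowest in control replicate 3. Krt71, a type II chain of the inner root sheath (chromosome 15, 101733949 to 101743109), stood at 1.79, 0.806 and 0.114 FPKM in the controls and at 2.66, 3.41 and 2.61 in the mutants. Krt27, a type I chain of the same layers, stood at 1.38, 1.002 and 0.0564 FPKM in the controls and at 2.07, 1.70 and 2.05 in the mutants. Neither overlapped, whereas Krt25 (1.17, 0.528 and 0.104 FPKM in control, 0.907, 2.32 and 2.40 FPKM in mutant) did. The log2 changes were 1.13 ± 0.31 (SE) for Krt71, 0.78 ± 0.29 for Krt27 and 0.85 ± 0.31 for Krt25, with limma adjusted p of 0.271, 0.387 and 0.382. Their control means were 0.903, 0.812 and 0.601 FPKM, so these genes entered the test only through the mutants. Without control replicate 3 the change of Krt27 was 0.43. With sex as a covariate, which leaves only mutant replicate 1 against the controls, that of Krt25 was 0.31. Krt28 also overlapped, as did Krt26, which was highest in control replicate 3 (0.235, 0.238 and 0.407 FPKM in the controls, 0.316, 0.260 and 0.306 in the mutants). Krt72 and Krt73 at under 1 FPKM were separated upward (named after their values were seen). Of the 7 detected genes 4 were thus separated upward, against 7.79% of all genes averaging 0.1 FPKM or more. Summed over the 8 genes of the set FPKM was 6.04, 3.50 and 0.851 in the controls and 7.72, 9.24 and 9.60 in the mutants. Without control replicate 3 the mutant mean of this sum was 1.86 times the control mean, against 2.56 times with it.

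Where values are this low, those of each gene step by the worth of a single fragment, which differs between libraries only by their depth. This gave implied fragment numbers, to within 0.1 of a whole number, for 46 of the 105 members. Krt71 stood at 50, 25 and 3 fragments in the controls and at 76, 86 and 49 in the mutants. Krt27 stood at 26, 21 and 1 in the controls and at 40, 29 and 26 in the mutants. The values of control replicate 3 in these genes thus rest on 1 to 3 fragments, in a library of 0.938 times the depth of control replicate 1.

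Hair shaft keratins summed to 2.66 to 3.56 FPKM in the controls and 5.01 to 7.31 in the mutants. The one of highest mean, Krt31, stood at 1.18, 0.879 and 1.42 FPKM in the controls and at 1.20, 1.19 and 1.91 in the mutants, with overlapping groups. Krt84, Krt83 and Krt35, the next in level, also overlapped, and Krt35 was highest in mutant replicate 3 at 1.39 FPKM. Of the 11 detected genes of the set 3 were separated upward, Krt33a, Krt33b and Krt85, named likewise, against 7.79% of all genes averaging 0.1 FPKM or more. Krt33a had implied fragments of 1, 1 and 0 in the controls against 2, 13 and 11 in the mutants. It had a control mean under 0.1 FPKM and was detected only through the mutants. Krt33a and Krt33b are close copies of each other, so their split is uncertain.

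Krtap13, a keratin-associated gene of the chromosome 16 cluster (88750744 to 88751635, minus strand), rose in the mutants from a level of at most 3 implied fragments in any control. It stood at 0.314, 0.189 and 0 FPKM in the controls and at 6.65, 2.78 and 3.89 in the mutants. The implied fragments were 3, 2 and 0 in the controls against 65, 24 and 25 in the mutants. The depth-adjusted ratio of mutant to control was 26.8, with a 95% interval of 11.1 to 84.0 from counting error alone. On the log2(FPKM + 1) scale it rose by 2.17 ± 0.26 (SE, limma adjusted p = 0.0267). Its control mean was 0.167 FPKM, so it entered this test only through the mutants. It was called in 11 of the 18 alternative fits that tested it, with adjusted p from 0.0111 to 0.334. The call was lost without any one of the 3 controls (0.107, 0.111 and 0.123 for replicates 1 to 3), without mutant replicate 3 (0.0871), with no filter on low genes (0.0618), without the variance trend (0.0545) and with the epithelial list as a covariate (0.334). In these fits the log2 change was 1.65 with the epithelial list and 2.06 to 2.26 in the others. With sex as a covariate, a fit counted among the 11, the log2 change was 2.72. That fit sets mutant replicate 1 alone against the 3 controls.

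Krtap8-1 and Krtap7-1, genes of small glycine- and tyrosine-rich hair proteins in the same chromosome 16 cluster, also had all mutant values above all controls. So did Krtap17-1 on chromosome 11, but from implied fragments of 1, 0 and 1 in the controls against 2, 1 and 2 in the mutants, so its highest control and lowest mutant were both 1 fragment and differed by library depth alone. Krtap7-1 and Krtap17-1 had control means under 0.1 FPKM and were detected only through the mutants. Krtap8-1 stood at 0.192, 0.173 and 0 FPKM in the controls and at 0.941, 1.92 and 1.43 in the mutants, from implied fragments of 1, 1 and 0 against 5, 9 and 5. Krtap7-1 stood at 0.172, 0 and 0 FPKM in the controls and at 0.675, 1.72 and 0.771 in the mutants, from 1, 0 and 0 fragments against 4, 9 and 3. In a fit over the 18407 genes averaging 0.1 FPKM or more their limma adjusted p was 0.0686 and 0.179. By contrast Krtap3-3 and Krtap16-1, both on chromosome 11, were at 2.56 to 3.03 and 0.891 to 1.28 FPKM in the controls and at 2.39 to 3.23 and 0.996 to 1.27 in the mutants. A group of 4 detected genes, Krtap3-1, Krtap4-7, Krtap10-4 and Krtap12-1, were listed at 0 in all controls and also at 0 in mutant replicate 3, the shallowest library, with 1 to 5 implied fragments in each of the other mutant libraries. The sum over all 53 genes was 5.59, 5.10 and 5.64 FPKM in the controls and 16.0, 17.4 and 13.1 in the mutants, with exact permutation p = 0.1. In this sum control replicate 3 was the highest of the controls. Many genes of this family are near-copies that share fragments, so single values of the low ones are uncertain.

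**Figure D5:**
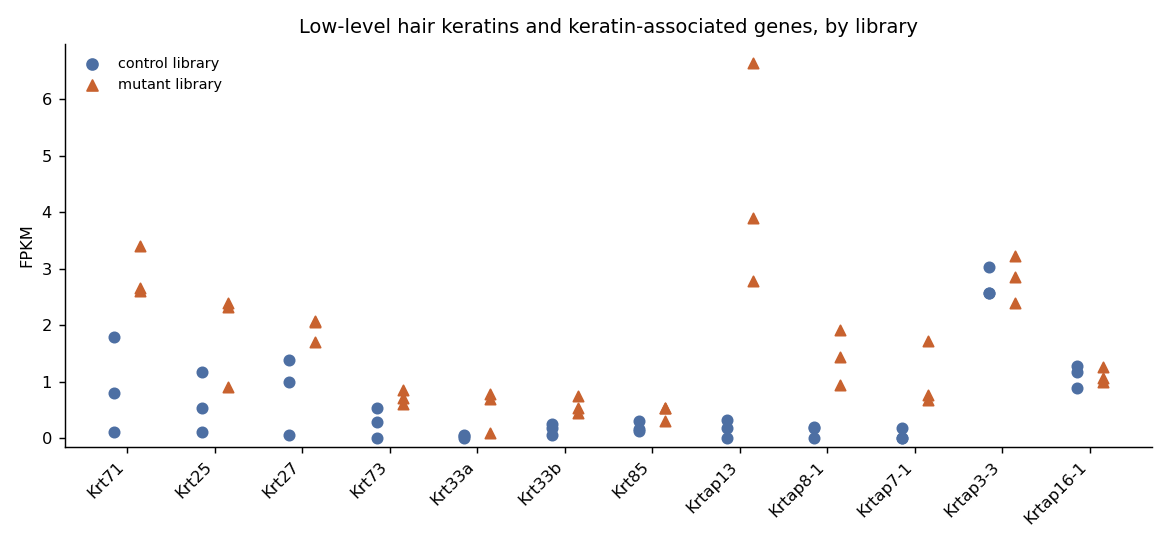
FPKM (linear axis) of selected hair follicle keratins and keratin-associated genes, with circles for control and triangles for mutant libraries. The genes were chosen in part after their values were seen. Krt26, Krt28, Krt31, Krt35, Krt83 and Krt84, all with overlapping groups, are among those not drawn. Separated upward were 4 of 7 detected inner root sheath and 3 of 11 detected hair shaft genes, against 7.79% of all genes averaging 0.1 FPKM or more. Krtap13 is at 0.314 FPKM or less in controls and 2.78 to 6.65 FPKM in mutants, while Krtap3-3 and Krtap16-1 overlap.

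Genes that act with keratins were read from the same fit. Of 25 tested genes of the cornified envelope, the cross-linked protein shell of dead surface cells, 23 had positive changes and none was called (median log2 change 0.51, and 13 had an unadjusted p under 0.05, all higher, against 5.35% of all tested genes). In this list 8 were separated upward, against 7.85% of all tested genes, and 22 of 25 were lowest in control replicate 3, against 16.3%. Ppl, which encodes periplakin of the envelope, stood at 22.5, 20.2 and 17.2 FPKM in the controls and at 26.4, 25.3 and 24.0 in the mutants (limma adjusted p = 0.291). Among 15 general epithelial genes 12 had positive changes and none was called (median 0.098). Of these genes 4 were separated upward and 1 downward, against 7.85% and 9.16% of all tested genes. The gene separated downward was Cldn7 (log2 change -0.22). Epcam (-0.12) and St14 (-0.028) were also lower, with overlapping groups. Trp63, the transcription factor of stratified epithelium, stood at 14.1, 12.5 and 9.53 FPKM in the controls and at 15.3, 16.9 and 17.6 in the mutants (limma adjusted p = 0.296). Perp, a desmosome gene under its control, stood at 99.5, 85.3 and 68.9 FPKM in the controls and at 117, 123 and 113 in the mutants. The summed level of the epithelial list was 515 to 561 FPKM in the controls and 567 to 617 in the mutants. With its library mean as a covariate the median change of the tested members was 0.14 and none was called. That mean, on the log2(FPKM + 1) scale, was itself separated, at 4.79 to 4.89 in the controls and 4.90 to 5.03 in the mutants. The fit therefore cannot tell the covariate and the genotype well apart. In that fit the log2 change was 0.45 for Krt5, 0.32 for Krt14, 0.42 for Krt1, 0.20 for Krt10 and 1.67 for Krt13.

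Hair follicle genes other than keratins had changes in both directions. Of 21 tested genes 12 had positive changes, none was called and the median was 0.063. At an unadjusted limma p under 0.05 there were 4, with Tchh (log2 change 0.65), Shh (0.41) and Dsc2 higher and Dlx3 lower. Of all 14766 tested genes 1670 reached that level in either direction. In this list 2 were separated upward and 2 downward, against 7.85% and 9.16% of all tested genes. Dsc2, a desmosomal cadherin gene, was at 14.3 to 14.8 FPKM in the controls and 16.9 to 17.7 in the mutants (log2 change 0.25, limma adjusted p = 0.152), and Dlx3 was at 22.6 to 24.9 FPKM in the controls and 17.4 to 22.2 in the mutants (-0.29, 0.323). Many of these genes also act in tooth, bone or olfactory tissue. Of 11 dermal papilla genes, which mark the mesenchyme beneath a follicle, 5 had positive changes and none was called (median -0.014), with Trps1 and Fgf7 at 0.29 and 0.35.

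Markers of other tissues in the dissection had the following values, and their part in the keratin values was not tested. Of 9 tested respiratory epithelial genes all had positive changes (median 0.14, Muc5b 0.21 and Bpifb1 0.29), and none was called. Of 12 olfactory genes 7 had positive changes and none was called (median 0.064, Omp 0.17 and Neurog1 -0.55). All 12 skeletal muscle genes had positive changes (median 0.79) and none was called, with a summed level of 479 to 751 FPKM in the controls and 724 to 1774 in the mutants. An unadjusted limma p under 0.05 was reached by 8 of them, all higher, against 5.35% of all tested genes. Of the 12, 6 were separated upward, against 7.85% of all tested genes. Myod1 and Tnni1 had log2 changes of 1.06 and 0.96.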

How the data were processed

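The values are FPKM as the authors deposited them, one per gene symbol and library, per the file headers. TopHat2 2.1.1, Bowtie2 2.2.8, SAMtools 0.1.18, Cuffdiff 2.2.1 and build mm10 are listed in the submitters' processing notes. Libraries came from TRIzol RNA by a strand-marking TruSeq kit, per the labels' protocols. For the gene annotation and the strand setting of the counting, nothing was stated in those sources, so fragments of genes with an antisense neighbour (Krt5, Krt8 and Krt10 among others) may be mixed. Depth relative to control replicate 1 was read from the spacing of values under 0.15 FPKM.

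Values were analysed as log2(FPKM + 1) with limma 3.58.1 in R 4.3.3 (lmFit, eBayes with trend, two-sided, no covariate, 4 residual degrees of freedom) over the 14766 genes averaging 1 FPKM or more. The fit was also run on simulated data with independent normal noise and without the filter on the mean. That run cannot speak to the filter, to counting error in low genes or to a shift shared by the genes of a library. Sums and ratios were compared by exact permutation over the 6 libraries. Intervals on fragment ratios are exact binomial and cover counting error only. Gene positions are from GENCODE M21 (GRCm38, the coordinates of mm10), which held 104 of the 105 symbols, and upstream sequences from RefSeq. Alternatives were other pseudocounts, filters, scalings and variance models, library weights, sex or an epithelial list as covariate, and leaving out each library. The members, roles and lists were chosen with earlier results of these data known. Named genes are every called member, up to 4 members of highest mean in each role and among the keratin-associated genes, up to 10 with the largest change whose groups do not overlap, those at the detection limit, and up to 4 called genes or otherwise the 2 of smallest p from each list. Others were named after their values were seen. Plots were drawn with matplotlib 3.10.9 in Python.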

Additional observations from a re-analysis of the deposited data

How the results depend on the processing

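No paired analysis was possible because the labels give the libraries no replicate numbers. The count of called genes, 39 over all tested genes, became 18 with no filter on the mean and 19 without the variance trend. It became 71 with library weights and 2 with the epithelial list as a covariate. When 1 library was left out it ran from 15 to 44. The count with sex as a covariate is not given, because that fit rests on 1 mutant library. The single called member became 0 with no filter, when genes averaging under 5 FPKM were dropped (Krtap13 among them), without the trend and with the epithelial list, and was 0 or 1 when 1 library was left out. Without control replicate 1 the called member was Krt15 in place of Krtap13. The median change of tested members, 0.44, became 0.29 when genes averaging 0.1 FPKM or more were kept and 0.16 when none was dropped, where more low genes enter, and 0.14 with the epithelial list. Leaving out 1 library gave 0.28 (control replicate 3) to 0.57 (control replicate 1). The changes of the 3 family sums kept their direction under all 3 scalings, with members under 1 FPKM left out and without any 1 library. Direction turned in an alternative for 10 named genes, none of them called: with the epithelial list for Krt80 (-0.12), Krt8 (-0.20), Krt19 (-0.14), Krt23 (0.0090) and Krt2 (-0.41), with sex for Krt75 (0.024), Krt18 (0.023), Krtap3-3 (-0.13) and Krtap16-1 (0.11), with library weights for Krtap3-3 (-0.042) and Krtap16-1 (0.055), and with a pseudocount of 0.1 for Krtap16-1 (0.0020). Leaving out 1 library also turned some: the range was -0.037 to 0.25 for Krt80, -0.12 to 0.12 for Krt75, -0.042 to 0.12 for Krtap3-3, -0.079 to 0.056 for Krtap16-1, -0.36 to 0.048 for Krt12, -0.068 to 0.097 for Krt8, -0.018 to 0.15 for Krt19 and -0.11 to 0.039 for Krt18. The causes were not tested. Depth limits the low keratin-associated genes, of which several rest on 1 to 5 fragments in a library.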
